A study of Mus musculus with 12 samples.

Results

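The nuclear lamina and the LINC complex (linker of nucleoskeleton and cytoskeleton) were followed through 8 mouse genes during the reprogramming of fibroblasts to pluripotency. They were chosen by name, as the lamin genes Lmna, Lmnb1 and Lmnb2, the lamin B receptor gene Lbr, the SUN domain genes Sun1 and Sun2, and the nesprin genes Syne1 and Syne2. The choice was made with earlier results of these data known. All 8 were among the 23420 genes counted, and all 8 passed the filter on low counts. RNA sequencing covered 12 libraries in 4 groups of 3. The groups were embryonic fibroblasts (MEF), cells at day 6 of reprogramming (Stage1), cells after 4 further days (Stage2) and established induced pluripotent stem cells (iPSC). All carried the strain label of a mixed C57BL/6 and 129 background. According to the design text, the MEF were unsorted, whereas the other 3 groups were sorted for Oct4-GFP, a fluorescent reporter of the pluripotency gene Pou5f1. The reprogramming factors, the number of clones behind the iPSC and whether replicates were separate cultures were not stated in the sources used here. The p-values therefore cover only how far these libraries spread, which may be technical.

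Titles and stage entries of the sample records named different groups in 12 of 12 libraries, and the titles were followed. The fibroblast collagen gene Col1a1 ran from 1.26 to 27.8 CPM in the 9 libraries of the other groups, against 2144 to 3392 CPM in the MEF libraries (CPM, read counts relative to library size, scaled by the TMM method). Pou5f1 ran from 444 to 733 CPM in those 9 libraries, against 0.877 to 3.94 CPM in MEF. These markers matched the MEF titles, while the order of Stage1, Stage2 and iPSC rested on the titles alone. Gene totals ran from 8916223 to 19011944 reads per library, at which 3 reads equal 0.158 to 0.336 CPM. Reads outside genes were 9.21% ± 0.304 in MEF, 42.8% ± 4.11 at Stage1, 49.9% ± 3.16 at Stage2 and 38.8% ± 4.87 in iPSC (SD, n = 3 each), and their part in the results was not tested. In bulk RNA, fewer cells of a type and less RNA per cell cannot be told apart.

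Lamins are intermediate filament proteins that line the inner nuclear membrane. B-type lamins, from Lmnb1 and Lmnb2, are made in nearly all cells, whereas A-type lamins, from Lmna, accumulate with differentiation and in stiff tissues and are known to be scarce in pluripotent cells. Lamin A/C and the lamin B receptor are among the known tethers that hold heterochromatin at the nuclear edge. SUN proteins cross the inner nuclear membrane and bind the KASH peptides of nesprins in the outer membrane, which in turn hold actin, microtubule motors or intermediate filaments.

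Promoter windows were found in the RefSeq table (GRCm38.p6) for 7 of the 8 genes. The 4 shown belong to genes that moved in opposite directions between fibroblasts and reprogrammed cells, namely Lmna (chr3:88503303-88503602, minus strand), Sun2 (chr15:79742487-79742786, minus strand), Sun1 (chr5:139200387-139200686, plus strand) and Lbr (chr1:181842352-181842651, minus strand). Each runs 5′ to 3′ over 300 bases, and capitals mark the GC box GGGCGG and the CCAAT box CCAAT on either strand, merged where they overlap.
Lmna: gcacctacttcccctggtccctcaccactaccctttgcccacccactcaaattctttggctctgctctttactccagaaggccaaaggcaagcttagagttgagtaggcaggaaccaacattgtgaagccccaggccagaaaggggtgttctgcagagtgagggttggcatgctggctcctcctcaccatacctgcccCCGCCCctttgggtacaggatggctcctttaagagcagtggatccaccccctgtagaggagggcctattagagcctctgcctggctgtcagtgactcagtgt
Sun2: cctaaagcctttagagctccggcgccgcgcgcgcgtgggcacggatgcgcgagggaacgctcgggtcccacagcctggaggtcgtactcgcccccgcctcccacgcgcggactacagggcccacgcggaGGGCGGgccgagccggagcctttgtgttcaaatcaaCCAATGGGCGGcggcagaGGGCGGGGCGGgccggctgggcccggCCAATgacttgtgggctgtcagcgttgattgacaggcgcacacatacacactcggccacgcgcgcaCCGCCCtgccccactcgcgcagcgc
Sun1: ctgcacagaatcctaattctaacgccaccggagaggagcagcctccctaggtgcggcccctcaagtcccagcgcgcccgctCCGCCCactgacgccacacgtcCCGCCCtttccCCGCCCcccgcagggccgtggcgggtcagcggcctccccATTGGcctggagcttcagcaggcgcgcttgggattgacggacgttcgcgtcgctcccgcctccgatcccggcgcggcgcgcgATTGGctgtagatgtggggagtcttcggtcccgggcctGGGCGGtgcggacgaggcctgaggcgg
Lbr: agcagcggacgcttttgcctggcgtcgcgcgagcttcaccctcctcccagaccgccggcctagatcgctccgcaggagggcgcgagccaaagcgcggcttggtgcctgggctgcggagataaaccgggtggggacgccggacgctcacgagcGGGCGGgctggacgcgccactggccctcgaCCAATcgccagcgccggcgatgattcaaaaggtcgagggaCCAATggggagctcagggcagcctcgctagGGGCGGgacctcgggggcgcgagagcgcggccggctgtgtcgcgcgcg

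In these windows Lmna held 1 CpG, and Sun2, Sun1 and Lbr held 39, 36 and 42, beside a median of 7 over the table's 32851 promoters. GC boxes numbered 1 in the Lmna window, 5 in Sun2 (of which 1 pair overlapped and 1 directly followed a CCAAT box), 4 in Sun1 and 2 in Lbr, and 35.7% of all promoters held at least 1. CCAAT boxes numbered 0 in the Lmna window and 2 in each of the others, and 37.4% of all promoters held at least 1. The letters TATAAA, present in 13.6% of all promoters, were absent from these 4 windows. The table holds a second window for Lmna, with 7 CpG, 0 GC boxes and 1 CCAAT box, and for Sun1, with 4 CpG, 0 GC boxes, 1 CCAAT box and 1 TATAAA, so the order of CpG counts between these 2 genes depends on the window. Both Lmna windows lie inside the gene, whose annotated 5′ end on the minus strand is at 88509956. No window at that end was available. The Lbr window also lies inside its gene, near the annotated 5′ end at 181843046. The Sun2 and Sun1 windows printed cover the annotated starts of their genes. The CpG counts therefore do not set like positions side by side, and the data do not say which start was used. Sun2 and Sun1, which moved in opposite directions, both held GC and CCAAT boxes in the windows printed. Matches of letters are a description of the windows and do not show that a factor binds there.

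All 8 genes differed between Stage1 and MEF, 5 of them higher at Stage1 (Lmnb1, Lmnb2, Lbr, Sun1 and Syne2) and 3 lower (Lmna, Sun2 and Syne1). A gene was called at an adjusted p below 0.05 in edgeR's quasi-likelihood test, and 80.4% of all 14770 genes tested were called in this comparison, 44.2% higher and 36.1% lower, so that a full count is near what most genes showed. The members' median absolute log2 fold change was 3.37, against 1.66 over all genes. Their median signed log2 fold change was 2.06, against 0.27 over all genes. Stage2 and iPSC were set against the same MEF libraries, so these comparisons repeat part of the first. Stage2 against MEF gave 5 higher and 3 lower members, with 81.0% of all genes called, 44.6% higher and 36.4% lower. iPSC against MEF gave 5 higher, 2 lower and 1 not called (Syne1), with 80.8% of all genes called, 44.9% higher and 35.8% lower.

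Changes after Stage1 were fewer. Stage2 against Stage1 called 3 of 8 members, with Sun2 and Syne1 higher and Syne2 lower, where 40.4% of all genes were called, 20.6% higher and 19.8% lower. Library totals in place of TMM scaling, and a fit of only the 6 libraries compared, each called 5 members there, 4 higher and 1 lower, adding Lbr and Sun1. With library totals, all genes split into 4026 higher and 1678 lower, against 3048 and 2921 with TMM. The all-gene count of the 6-library fit is not given here. iPSC against Stage2 called only Syne2, which was lower, where 18.1% of all genes were called, 9.21% higher and 8.87% lower. The fit of those 6 libraries alone called 3 members, all lower, adding Lmnb1 and Sun1. That fit called 4954 of all genes, 2307 higher and 2647 lower, against 2670 in the fit of all 12 libraries. iPSC against Stage1 called Lbr and Syne1 higher and Syne2 lower, where 39.4% of all genes were called, 21.3% higher and 18.1% lower. The median absolute log2 fold change of the members was 0.31 at the Stage2 step, beside 0.53 over all genes, and 0.28 at the iPSC step, beside 0.36 over all genes.

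**Figure D1:**
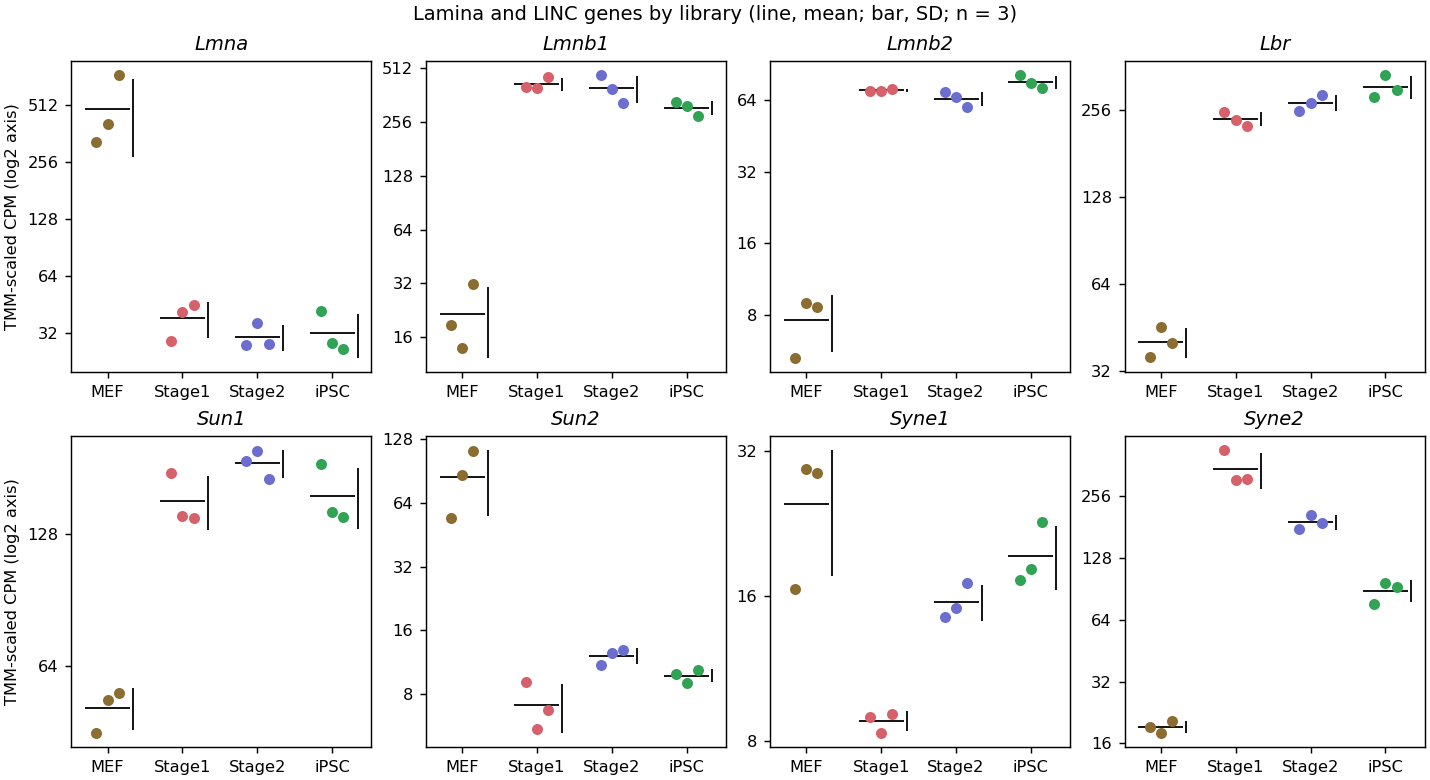
TMM-scaled CPM (log2 axis) of the 8 genes in each of 12 libraries by group. Points are libraries, horizontal lines group means and vertical bars the SD (n = 3). Lmna and Sun2 stood highest in MEF, Lmnb1, Lmnb2, Lbr and Sun1 were high in every group but MEF, and Syne2 stood highest at Stage1 and lower at each later stage.

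Lmna (ENSMUSG00000028063.15, chromosome 3, 88480147 to 88509956, GENCODE M21 on mm10) encodes lamins A and C by alternative splicing, and gene counts do not separate the 2 products. Its level was 327, 407 and 739 CPM in MEF replicates 1, 2 and 3, and 28.8, 41.3 and 44.9 CPM at Stage1. It was 27.5, 36.0 and 28.0 CPM at Stage2 and 41.7, 28.1 and 26.3 CPM in iPSC. Every MEF library lay above every other library, whereas the 3 later groups overlapped one another. Lmna fell 12.8-fold in Stage1 against MEF, and its log2 fold change was -3.68 ± 0.286 (SE; adjusted p = 4e-09 by edgeR). Against Stage1, Stage2 had a log2 fold change of -0.33 ± 0.267 (adjusted p = 0.350), and iPSC against Stage2 had 0.068 ± 0.268 (adjusted p = 0.888), a direction that turned without iPSC replicate 1 and with library totals. The MEF libraries varied among themselves, with a coefficient of variation of 44.5%, and replicate 3 was the high one. Without any 1 library, the log2 fold change of Stage1 against MEF lay between -3.92 and -3.26.

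Lmnb1 (ENSMUSG00000024590.8, chromosome 18, 56707813 to 56753424) encodes lamin B1, whose level is known to be high in dividing cells and to be lost in senescence. Its level was 18.8, 14.0 and 31.8 CPM in the MEF libraries and 398, 393 and 456 CPM at Stage1. It was 466, 389 and 326 CPM at Stage2 and 330.1, 314 and 276 CPM in iPSC. MEF stood apart below all others, Stage2 overlapped both Stage1 and iPSC, and iPSC lay below Stage1 without overlap. Lmnb1 rose 19.2-fold in Stage1 against MEF, which is 4.26 ± 0.243 on the log2 scale (adjusted p = 2.83e-11 by edgeR). iPSC against Stage1 had a log2 fold change of -0.44 ± 0.210 (adjusted p = 0.108), which was called lower in the fit of those 6 libraries alone (adjusted p = 0.00303) and without MEF replicate 2 or 3 (adjusted p = 0.0316 and 0.0149). The 8 markers of dividing cells, among them Mki67 and Top2a, were all higher at Stage1 than in MEF. Their summed level was 456 to 551 CPM in MEF, 4946 to 5594 CPM at Stage1, 4741 to 5565 CPM at Stage2 and 5192 to 5853 CPM in iPSC, and their part in the lamin changes was not tested.

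Lmnb2 (ENSMUSG00000062075.13, chromosome 10, 80901203 to 80918245) encodes lamin B2. Its level was 5.26, 8.96 and 8.62 CPM in the MEF libraries and 69.8, 69.5 and 71.5 CPM at Stage1. It was 69.0, 65.8 and 59.9 CPM at Stage2 and 81.4, 75.8 and 71.9 CPM in iPSC. The gene followed Lmnb1 across the first step, with a 9.03-fold rise in Stage1 against MEF (log2 fold change 3.17 ± 0.175, adjusted p = 1.7e-11 by edgeR). The levels after Stage1 stayed within a narrow band, and no comparison among Stage1, Stage2 and iPSC was called. Stage2 against Stage1 had a log2 fold change of -0.12 ± 0.154 (adjusted p = 0.580). iPSC had 0.24 ± 0.154 against Stage2 (adjusted p = 0.310) and 0.12 ± 0.154 against Stage1 (adjusted p = 0.576), although the libraries did not overlap in any of these pairs.

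Lbr (ENSMUSG00000004880.11, chromosome 1, 181815335 to 181843046) encodes the lamin B receptor, an inner membrane protein that binds B-type lamins and heterochromatin and is also a sterol reductase. Its level was 35.8, 45.5 and 40.3 CPM in the MEF libraries and 253, 238 and 226 CPM at Stage1. It was 255, 271 and 290.4 CPM at Stage2 and 285, 339 and 302 CPM in iPSC. Group means went up at each stage, and neighbouring stages after MEF lay close together, with Stage2 and iPSC overlapping. Lbr rose 5.88-fold in Stage1 against MEF (log2 fold change 2.56 ± 0.135, adjusted p = 9.59e-12 by edgeR) and was higher in iPSC than at Stage1 (0.37 ± 0.126, adjusted p = 0.0276). That second call was lost without Stage1 replicate 2 or 3 or iPSC replicate 2 or 3, with adjusted p between 0.0597 and 0.128. Of its exon bases, 10.7% also belong to other annotated genes (Dnah14 on the opposite strand and Gm26004). The share was 3.98% for Sun1 and 2.71% for Sun2, in each case with a gene on the opposite strand, and the strand setting of the counting is not given in the sources used here.

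Sun1 (ENSMUSG00000036817.14, chromosome 5, 139200637 to 139249840) encodes SUN1, which also ties telomeres to the nuclear envelope in meiosis. Its level was 45.2, 53.7 and 55.7 CPM in the MEF libraries and 176, 140.3 and 139 CPM at Stage1. It was 187, 197 and 171 CPM at Stage2 and 184, 143 and 140.0 CPM in iPSC. MEF was low in each library, and the other groups overlapped. Sun1 rose 2.94-fold in Stage1 against MEF (log2 fold change 1.56 ± 0.149, adjusted p = 2.88e-08 by edgeR). Stage2 against Stage1 gave 0.28 ± 0.144 (adjusted p = 0.126), which was called higher with library totals (0.49), with DESeq2 (0.35) and in the fit of those 6 libraries alone (0.33).

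Sun2 (ENSMUSG00000042524.14, chromosome 15, 79724070 to 79742536) encodes SUN2, the partner used for nuclear positioning in migrating fibroblasts. Its level was 54.4, 86.9 and 112 CPM in the MEF libraries and 9.13, 5.46 and 6.73 CPM at Stage1. It was 10.9, 12.5 and 12.9 CPM at Stage2 and 9.91, 9.03 and 10.4 CPM in iPSC. MEF stood above all others, Stage1 lay below Stage2 without overlap, and iPSC overlapped Stage1. Sun2 fell 11.8-fold in Stage1 against MEF (log2 fold change -3.57 ± 0.252, adjusted p = 4.76e-10 by edgeR) and was higher at Stage2 than at Stage1 (0.76 ± 0.246, adjusted p = 0.0198). Leaving out Stage1 replicate 2 or 3, or Stage2 replicate 2 or 3, ended that second call, with adjusted p between 0.0543 and 0.106. Stage2 remained 6.97-fold below MEF (log2 fold change -2.80 ± 0.241), and iPSC 8.67-fold below it (-3.12 ± 0.246).

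Syne1 (ENSMUSG00000096054.3, chromosome 10, 5020917 to 5551482) encodes nesprin-1, a spectrin-repeat protein with giant and short isoforms that binds actin and is abundant in muscle. Its level was 16.5, 29.3 and 28.8 CPM in the MEF libraries and 8.99, 8.32 and 9.09 CPM at Stage1. It was 14.5, 15.1 and 17.1 CPM at Stage2 and 17.3, 18.2 and 22.8 CPM in iPSC. Stage1 was the low group, below every library of the other groups. Syne1 fell 2.85-fold in Stage1 against MEF (log2 fold change -1.51 ± 0.222, adjusted p = 6.66e-06 by edgeR) and was 1.77-fold higher at Stage2 than at Stage1 (0.82 ± 0.222, adjusted p = 0.00700). iPSC stood above Stage1 (1.14 ± 0.222, adjusted p = 0.000572). Stage2 was lower than MEF (-0.69 ± 0.214, adjusted p = 0.00694), with MEF replicate 1 inside the range of the Stage2 libraries, and this call was lost with library totals (-0.29, adjusted p = 0.207). iPSC against MEF was not called (-0.37 ± 0.212, adjusted p = 0.118), but was lower without MEF replicate 1 (-0.61, adjusted p = 0.00581).

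Muscle markers were read beside Syne1. The summed level of 7 of them was 1.27 to 4.76 CPM in MEF, 25.8 to 36.5 CPM at Stage1, 243 to 325 CPM at Stage2 and 73.4 to 79.3 CPM in iPSC. Of the 7, 2 were higher at Stage1 than in MEF, 1 was lower and 4 were not tested. Most of the Stage2 sum came from Ttn, which encodes the giant sarcomere protein titin, at 273 ± 41.3 CPM at Stage2. The cardiac actin gene Actc1 averaged 0.219 CPM and the troponin gene Tnnt2 0.621 CPM at Stage2, and Myod1 and Ckm had no count in MEF. The part of these markers in the Syne1 values was not tested.

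Syne2 (ENSMUSG00000063450.14, chromosome 12, 75818134 to 76110926) encodes nesprin-2, the giant outer membrane partner of SUN proteins. Its level was 19.3, 18.1 and 20.7 CPM in the MEF libraries and 429, 306 and 311 CPM at Stage1. It was 177, 209 and 191 CPM at Stage2 and 76.8, 97.2 and 92.7 CPM in iPSC. The 4 groups did not overlap in any pair, with Stage1 highest, then Stage2, then iPSC, then MEF. Syne2 rose 18.0-fold in Stage1 against MEF (log2 fold change 4.17 ± 0.170, adjusted p = 3.17e-13 by edgeR). It then fell 1.81-fold in Stage2 against Stage1 (-0.86 ± 0.147, adjusted p = 0.000203) and 2.16-fold in iPSC against Stage2 (-1.11 ± 0.149, adjusted p = 0.000140). iPSC still held 4.59 times the MEF level (log2 fold change 2.2 ± 0.159, adjusted p = 6.69e-10). Of the 8 genes, Syne2 was the only one called in all 6 comparisons, and these calls held with each of the 19 alternatives tried.

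**Figure D2:**
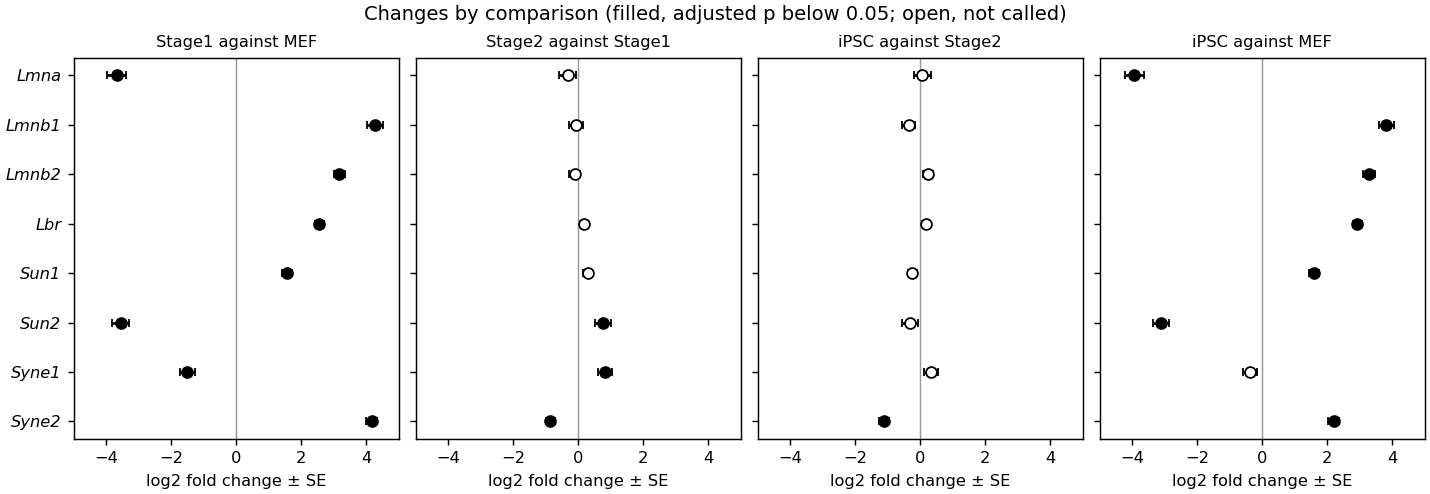
Log2 fold change ± SE of each gene in each pair of groups drawn. Filled points are called at an adjusted p below 0.05 and open points are not. At the first step all 8 are filled, and at the iPSC step from Stage2 only Syne2 is.

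Ratios of counts within a library do not depend on scaling. They were not corrected for gene length, so they are read between groups and not as levels of one gene against another. The ratio of Lmna to Lmnb1 reads was 17.4, 29.1 and 23.3 in MEF, 0.0724, 0.105 and 0.0984 at Stage1, 0.0589, 0.0924 and 0.0858 at Stage2 and 0.126, 0.0893 and 0.0954 in iPSC. All 3 MEF libraries lay above the other 9, which overlapped among their groups. The log2 ratio was -3.46 ± 0.287 at Stage1 and 4.51 ± 0.372 in MEF (SD, n = 3 each), a difference of -7.97. The 2-sided exact permutation test gave p = 0.1, the smallest that 3 libraries against 3 allow. Between Stage2 and Stage1 the difference was -0.23 (exact permutation p = 0.5) and between iPSC and Stage2 it was 0.40 (p = 0.2).

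For the tether genes Lmna and Lbr, the log2 ratio of reads was -2.66 ± 0.419 at Stage1 and 3.52 ± 0.591 in MEF, a difference of -6.18 (exact permutation p = 0.1). It was -3.17 ± 0.235 at Stage2 and -3.30 ± 0.454 in iPSC, with libraries of neighbouring groups overlapping. For the SUN pair, the log2 ratio of Sun2 to Sun1 reads was -4.44 ± 0.217 at Stage1 and 0.66 ± 0.374 in MEF, a difference of -5.10 (exact permutation p = 0.1). It was -3.93 ± 0.191 at Stage2, above Stage1 in each library by the same test's smallest p of 0.1, and -3.99 ± 0.231 in iPSC. Over the 3 ratios and 4 comparisons, 12 such tests were made, and none can pass 0.05 in this design.

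**Figure D3:**
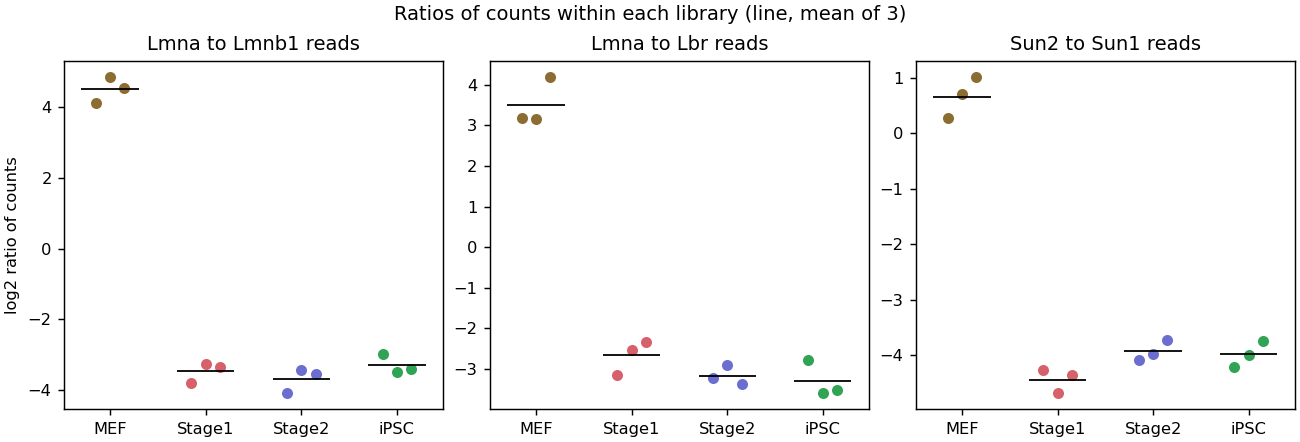
Log2 ratio of read counts within each library, for Lmna to Lmnb1, Lmna to Lbr and Sun2 to Sun1, by group. Points are libraries, lines are means of 3, and ratios are not corrected for gene length. The MEF libraries lie above the other 9 libraries in each panel.

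Levels of different genes were set against each other per length, as TMM-scaled CPM per kilobase of all annotated exons (RPKM). On this scale Lmna averaged 84.1 ± 37.4 RPKM in MEF, 6.57 ± 1.44 at Stage1, 5.22 ± 0.816 at Stage2 and 5.48 ± 1.44 in iPSC. Lmnb1 averaged 7.26 ± 3.11 RPKM in MEF, 140.3 ± 11.8 at Stage1, 133 ± 23.6 at Stage2 and 104 ± 9.47 in iPSC. Of the 3 lamin genes together, Lmna thus held 90.0% ± 1.67 per length in MEF, 4.01% ± 0.731 at Stage1, 3.46% ± 0.729 at Stage2 and 4.29% ± 0.786 in iPSC. Lmnb1 held 7.95% ± 1.91 in MEF, 85.9% ± 0.737 at Stage1, 86.6% ± 1.54 at Stage2 and 81.6% ± 0.784 in iPSC. Lmnb2 held 2.04% ± 0.651 in MEF, 10.1% ± 0.620 at Stage1, 9.97% ± 0.900 at Stage2 and 14.1% ± 0.517 in iPSC, where its libraries lay above all others.

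In the SUN pair, Sun2 held 68.7% ± 5.59 per length in MEF, 6.10% ± 0.834 at Stage1, 8.45% ± 1.04 at Stage2 and 8.18% ± 1.20 in iPSC. Among the nesprins, Syne1 held 45.3% ± 8.14 per length in MEF, 1.67% ± 0.277 at Stage1, 5.08% ± 0.511 at Stage2 and 12.6% ± 1.51 in iPSC. The nesprin share moved at each stage without overlap between groups, unlike the SUN share, in which Stage2 and iPSC overlapped. Syne1 and Syne2 span 40491 and 26726 exon bases, and a cell that uses short isoforms is understated on this scale. The lamin and SUN shares carry the same limit. Their exons of all isoforms span 5838 bases for Lmna, 2962 for Lmnb1, 4286 for Lmnb2, 7596 for Sun1 and 5420 for Sun2. The annotation behind the counts may also differ from the one used for length.

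**Figure D4:**
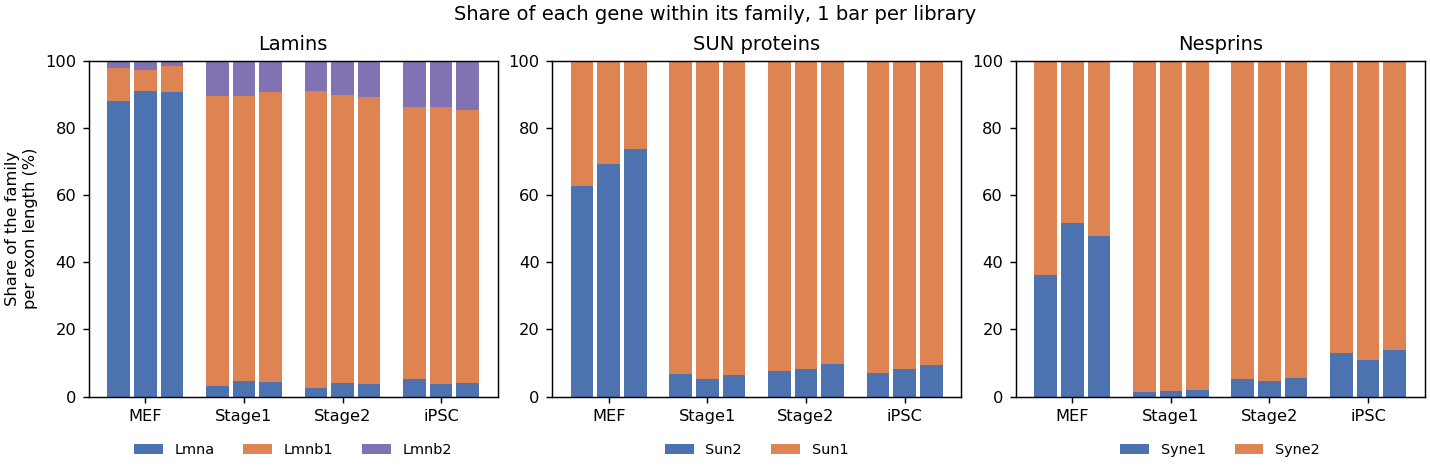
Share of each gene in the per-length level of its family (lamins, SUN proteins, nesprins), with 1 stacked bar per library, in percent. Lmna and Sun2 hold most of their families in the MEF libraries and under 10% in the others, and the Syne1 share is lowest at Stage1 and higher at Stage2 and in iPSC.

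Other genes of the nuclear envelope were counted from 4 lists, chosen with earlier results of these data known. In Stage1 against MEF, 25 of 29 nuclear pore genes rose, 2 fell and 2 were not called, where 44.2% of all genes were higher and 36.1% lower. The list's median log2 fold change was 1.67, beside 0.27 over all genes. Nup210, which encodes a membrane pore protein, averaged 58.4 ± 15.2 CPM at Stage1 and 0.439 ± 0.300 CPM in MEF. Nup107 and Nup160 belong to the pore's outer ring. Nup107 reached 268 ± 12.6 CPM at Stage1, against 29.9 ± 5.06 CPM in MEF, and Nup160 reached 175 ± 6.28 CPM at Stage1, against 20.4 ± 0.570 CPM in MEF. Sec13, shared with vesicle coats, fell to 88.0 ± 5.6 CPM at Stage1, against 199 ± 71.6 CPM in MEF, and Aaas to 53.3 ± 2.26 CPM, against 70.4 ± 13.4 CPM in MEF.

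The 22 inner membrane and lamina-bound genes split, with 8 higher at Stage1 than in MEF, 10 lower, 3 not called and 1 not tested. That is 18 of the 21 tested, beside 80.4% of all genes called, and the median log2 fold change was -0.22, beside 0.27 over all genes. Among those higher, Tmpo, which encodes the lamin-binding LAP2 proteins, averaged 479 ± 21.2 CPM at Stage1 and 80.7 ± 11.7 CPM in MEF. The heterochromatin protein gene Cbx1 had 172 ± 27.7 CPM at Stage1 and 24.0 ± 3.45 CPM in MEF. Ankle1, a LEM-domain nuclease gene, had 12.1 ± 1.72 CPM at Stage1 and 0.475 ± 0.437 CPM in MEF. Cbx3 and Cbx5, the other heterochromatin protein genes of the list, were also higher. Among those lower, Tor1aip1, which encodes the lamin-binding LAP1, averaged 15.5 ± 2.04 CPM at Stage1 and 63.1 ± 11.3 CPM in MEF. Tmem43, whose product binds emerin and lamins, had 46.6 ± 9.04 CPM at Stage1 and 161 ± 41.9 CPM in MEF, and Tmem38a, an ion channel gene, had 2.87 ± 1.29 CPM at Stage1 and 13.1 ± 0.846 CPM in MEF. Emd, Lemd2, Banf1 and Prr14 fell as well.

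Of 6 lamin processing genes, 1 was higher at Stage1 than in MEF, 3 were lower and 2 were not called, beside 80.4% of all genes called. Their median log2 fold change was -0.44. Icmt, the methyltransferase that acts on the lamin tail, averaged 33.2 ± 1.85 CPM at Stage1 and 70.3 ± 16.4 CPM in MEF. Zmpste24, the protease that cleaves prelamin A, had 81.4 ± 11.3 CPM at Stage1 and 117 ± 20.9 CPM in MEF, and Narf, a binder of prelamin A, had 28.2 ± 3.76 CPM at Stage1 and 39.5 ± 1.10 CPM in MEF. Fnta, a subunit of the farnesyl transferase, was higher, at 95.6 ± 8.60 CPM at Stage1 and 53.2 ± 6.14 CPM in MEF. With library totals, only 1 was higher and 1 lower, where 6973 of all genes were higher and 4899 lower. Of 7 other SUN and KASH genes, 3 were higher (Syne4, Ccdc155 and Lrmp), 0 lower, 2 not called and 2 not tested, the higher ones all under 3 CPM at Stage1, where 44.2% of all genes were higher. Without Stage1 replicate 1, 4 were higher and 1 lower, and with no filter on low counts 5 were higher.

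In Stage2 against Stage1, 17 of 29 nuclear pore genes were lower and 0 higher, where 19.8% of all genes were lower and 20.6% higher. The list's median log2 fold change was -0.39, beside 0.02 over all genes. With library totals 6 were lower and 0 higher, where 1678 of all genes were lower and 4026 higher (with TMM 2921 and 3048). Without Stage1 replicate 2 the count was 10, and without Stage2 replicate 2 or 3 it was 11. All genes called ran from 4482 to 6959 over single libraries left out, beside 5969 with all 12. Nup210 fell to 31.4 ± 2.95 CPM at Stage2, against 58.4 ± 15.2 CPM at Stage1. Nup54 had 109 ± 5.66 CPM at Stage2 and 193 ± 25.4 CPM at Stage1, and Nup35 had 45.3 ± 9.06 CPM at Stage2 and 78.1 ± 10.1 CPM at Stage1. Of the 21 tested genes of the inner membrane list 7 were lower and 1 higher, beside 40.4% of all genes called, and with library totals 2 were lower and 2 higher. Hdac3, a deacetylase held at the nuclear edge, fell to 55.5 ± 3.57 CPM at Stage2, against 85.9 ± 1.49 CPM at Stage1. Tor1b, a torsin ATPase gene, had 23.7 ± 1.74 CPM at Stage2 and 37.2 ± 2.35 CPM at Stage1, and Prr14, a heterochromatin tether gene, had 10.6 ± 1.2 CPM at Stage2 and 16.9 ± 1.3 CPM at Stage1. Tmem38a was higher, at 7.35 ± 1.17 CPM at Stage2 and 2.87 ± 1.29 CPM at Stage1.

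Among lamin processing genes, Zmpste24 fell further, to 38.1 ± 4.75 CPM at Stage2, against 81.4 ± 11.3 CPM at Stage1, and Fnta to 75.4 ± 5.15 CPM, against 95.6 ± 8.60 CPM at Stage1. Narf was higher, at 67.0 ± 11.5 CPM at Stage2 and 28.2 ± 3.76 CPM at Stage1. This count of 2 lower and 1 higher of 6, beside 40.4% of all genes called, became 3 lower and 2 higher in the fit of those 6 libraries alone and without MEF replicate 2 or 3. Of other KASH genes, Ccdc155, which encodes the meiotic partner of SUN1 called KASH5, reached 6.39 ± 1.64 CPM at Stage2, against 0.393 ± 0.0796 CPM at Stage1. Lrmp had 6.54 ± 0.806 CPM at Stage2 and 2.77 ± 1.40 CPM at Stage1, and Syne4, for nesprin-4 of epithelial cells, had 5.76 ± 0.265 CPM at Stage2 and 2.63 ± 1.08 CPM at Stage1. All 3, of 5 tested, were called higher and 0 genes of this list lower, where 20.6% of all genes were higher, but without Stage1 replicate 2 or 3 only 1 was called.

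In iPSC against Stage2, 18.1% of all genes were called, 9.21% higher and 8.87% lower. Of 29 nuclear pore genes 5 were higher and 2 lower, of 6 lamin processing genes 1 was higher (Fnta) and 1 lower (Fntb), and of the 21 tested genes of the inner membrane list 1 was higher and 0 lower. Tmpo was that gene, at 459 ± 44.3 CPM in iPSC and 336 ± 17.3 CPM at Stage2. Syne3, which encodes nesprin-3, the link to plectin and intermediate filaments, fell to 1.91 ± 0.540 CPM in iPSC, against 6.02 ± 1.15 CPM at Stage2, and this list's count of 1 lower and 0 higher was the same without each library in turn. Nup37 had 79.0 ± 1.82 CPM in iPSC and 46.1 ± 6.98 CPM at Stage2, and Pom121, a membrane anchor of the pore, had 7.61 ± 0.412 CPM in iPSC and 12.5 ± 0.663 CPM at Stage2. The pore count was 0 or 1 without any 1 of the Stage2 or iPSC libraries, 3 without Stage1 replicate 2 or 3, and 12 without MEF replicate 3. The processing count was 0 or 1 without any 1 of the Stage2 or iPSC libraries. The inner membrane count was 0 without any 1 of those libraries other than iPSC replicate 1, and 2 without MEF replicate 3. All genes called moved too, from 2670 to between 1233 and 1632 without any 1 of the Stage2 or iPSC libraries. They reached up to 3781 without a library of another group.

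**Figure D5:**
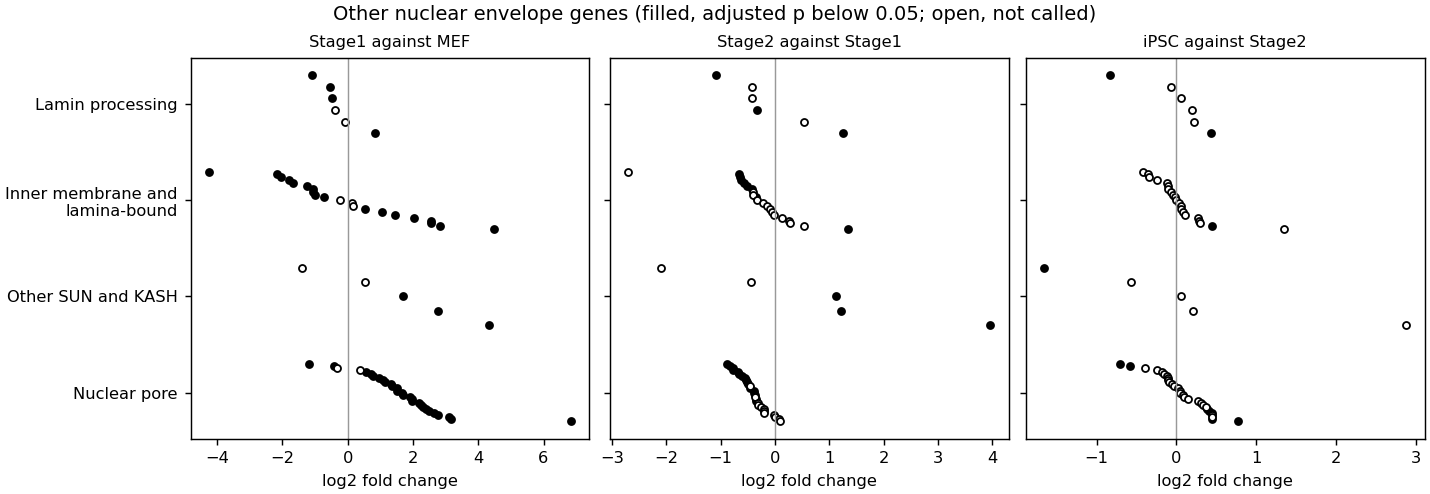
Log2 fold changes of single genes in the 4 lists of other nuclear envelope genes, for each of the 3 successive steps. Filled points are called at an adjusted p below 0.05, open points are not, and vertical position within a list only ranks the genes; nuclear pore genes lie mostly to the right of 0 at the first step and to the left of it at the second.

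Profiles most like each member were sought among named genes with at least 5 CPM on average, as the smallest root mean square difference of centred log2 CPM over the 12 libraries. For Lmna they were Chpf (0.30), Mob3a (0.32) and Lfng (0.33), with Pearson r between 0.984 and 0.991. For Lmnb1 they were L3mbtl2 (0.20), Ccp110 (0.25) and Atad5 (0.25), and for Lmnb2 Vrk1 (0.14), Wdr5 (0.14) and Usp37 (0.17). Lbr was closest to Trit1 (0.13), Sun1 to Brd1 (0.14), Sun2 to Herpud1 (0.17) and Syne1 to Nat6 (0.20). The nearest profile to Syne2 was Bicd1, at 0.34 with r = 0.976, farther than the nearest of any other member. All these correlations describe profiles that share the same libraries and the contrast of MEF with the rest.

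Markers of other cell types were summed beside these results. The 9 fibroblast markers summed to 15469 to 22607 CPM in MEF, 17.7 to 26.8 CPM at Stage1, 109.9 to 158 CPM at Stage2 and 84.3 to 92.1 CPM in iPSC, and were all lower at Stage1 than in MEF. The 9 pluripotency markers were all higher at Stage1, with sums of 2307 to 2874 CPM there and 4.52 to 5.62 CPM in MEF, where Lin28a had no count. Of 6 macrophage and blood markers 5 were lower at Stage1, with sums of 8.16 to 14.2 CPM there and 113 to 123 CPM in MEF. Of 6 endothelial markers 4 were higher and 1 lower at Stage1, with sums of 46.5 to 58.4 CPM there and 9.76 to 17.5 CPM in MEF, most of it from Pecam1, which pluripotent mouse cells also express. Of 6 neural markers 2 were higher and 2 lower, with sums of 78.7 to 92.8 CPM at Stage1 and 212 to 333 CPM in MEF. The part of these cells in the lamina and LINC values was not tested.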

How the data were processed

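Raw read counts per gene symbol were deposited by the authors, 1 table per library. Per the submitters' processing notes, the tools were TopHat2 2.0.9, Bowtie2 2.2.6, SAMtools 0.1.19, HTSeq 0.5.4p3 and DESeq2 1.12.4, with build mm10. The annotation and the strand setting are not given in the sources used here. Per the labels, RNA was extracted with the miRNeasy kit and made into Illumina libraries. HTSeq summary lines stayed out of totals and tests, and the share outside genes stands in the report.

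One fit held all 12 libraries and 4 groups in R 4.3.3 with edgeR 4.0.16 (filterByExpr, TMM, robust quasi-likelihood), which left 14770 of 23420 genes. Benjamini-Hochberg adjustment ran over all 14770 genes. Each SE was derived from the log2 fold change and its F statistic. Ratios were tested by exact permutation with scipy 1.17.1. The procedure was tested on simulated data. Exon lengths and positions came from GENCODE M21. SD and SE include the spread between libraries, whereas floors cover counting error only.

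Members, lists, tests and the naming rule were chosen with earlier results of these data known. All members are named; called list genes may be named, and at most 3 per direction, those with the largest change at 5 CPM or more, get values. Alternatives were RLE scaling, library totals, no filter, 1 CPM in 3 libraries, DESeq2 1.42.0, fits of the compared libraries, a replicate block and leaving out each library.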

Additional observations from a re-analysis of the deposited data

How the results depend on the processing

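Of 912 values of single members under alternatives, 884 kept direction and side of the threshold, 11 passed it newly, 9 lost it and 8 turned direction. Those that turned were uncalled both times. They were Lmnb1 in Stage2 against Stage1 (0.12 with library totals, and -0.23 to 0.025 over single libraries left out, the turn being without Stage2 replicate 3), Lmnb2 in the same comparison (0.088 with library totals), Lmna in iPSC against Stage2 (-0.031 with library totals, and -0.14 to 0.22 over single libraries, the turn being without iPSC replicate 1) and Sun1 in iPSC against Stage1 (-0.085 to 0.17 over single libraries, the turns being without Stage1 replicate 2, Stage1 replicate 3 and iPSC replicate 1). The cause was not tested.

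Library totals moved the median of all genes by 0.18 for Stage1 against MEF, 0.20 for Stage2 against Stage1, -0.10 for iPSC against Stage2, 0.38 for Stage2 against MEF and 0.28 for iPSC against MEF (log2). The split of higher and lower calls moved with them, to 4026 higher and 1678 lower (with TMM 3048 and 2921) for Stage2 against Stage1, and to 882 higher and 1708 lower (with TMM 1360 and 1310) for iPSC against Stage2. List counts under library totals were 2 (processing, Stage1 against MEF), 4 and 6 (inner membrane and pore, Stage2 against Stage1), and 1, 0 and 2 (processing, inner membrane and pore, iPSC against Stage2). Members called in Stage2 against Stage1 were 5 with library totals and 5 in the fit of the 6 libraries compared. That fit also called 3 members, 3 inner membrane genes, 13 pore genes and 4954 of all genes for iPSC against Stage2, and 5 processing genes for Stage2 against Stage1. RLE scaling called 1 processing and 3 pore genes for iPSC against Stage2. Without a filter, the calls were 5 other SUN and KASH genes for Stage1 against MEF, 11 pore genes for Stage2 against Stage1, and 1 processing and 4 pore genes for iPSC against Stage2.

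Leaving out single libraries gave 3 to 5 other SUN and KASH genes for Stage1 against MEF, beside 11592 to 12103 of all genes. For Stage2 against Stage1 it gave 2 to 5 processing, 1 to 3 other SUN and KASH and 10 to 19 pore genes, beside 4482 to 6959 of all genes. For iPSC against Stage2 it gave 0 to 2 processing, 0 to 2 inner membrane and 0 to 12 pore genes and 1233 to 3781 of all genes, with at most 1632 without any 1 of the Stage2 or iPSC libraries. For iPSC against Stage2 it also turned the log2 ratio of Lmna to Lbr (-0.39 to 0.019) and of Sun2 to Sun1 (-0.17 to 0.060). Deviations of same-numbered libraries correlated between -0.07 and 0.20, and no comparison had all its pairs above 0.1, so no clear pairing was seen. Differently numbered libraries were not correlated as a reference, so this check cannot decide whether replicate numbers paired the libraries weakly. With the replicate block, 4 pore genes were called for iPSC against Stage2. Ratios do not depend on scaling or filters, so those alternatives gave them no value.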
